A study of Homo sapiens with 9 samples.

Results

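The mRNAs described here encode the machinery of mitosis, of the kinetochore and of DNA replication, and were examined in RNA co-precipitated with the guidance receptors DCC and Nrp1. Membership was set by gene symbol alone: every gene of the count tables whose symbol matched a fixed name pattern (the CENP, SKA, MCM, ORC, GINS, SMC and NCAP families, the NDC80 complex, the spindle checkpoint, mitotic kinases, cyclins, CDC genes, TOP2A, MKI67 and BIRC5) was taken, without regard to its level. This gave 83 of 42785 genes. The 9 libraries came from SH-SY5Y, a human neuroblastoma cell line that divides in culture and is used as a neuron-like model. In 3 libraries the lysate had been precipitated with a mouse antibody to DCC on magnetic beads (DCC-IP), in 3 with a rabbit antibody to Nrp1 (Nrp1-IP), and 3 were made from whole lysate (Input). No treatment, knockdown or time course separated the groups, and the RNA of each library was turned into cDNA and amplified by a PCR method developed for single cells. The comparisons ask which of these mRNAs were recovered with either receptor, how the receptors differed, and how each pulldown compared with the lysate. The model is limited to a single tumour cell line, the antibodies differed in host species, and a pulldown with a non-specific antibody was not analysed here.

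A dividing cell copies its genome once and then parts the copies. Origin recognition complex proteins (ORC) mark origins, CDC6 helps to load the MCM helicase there, and CDC45 and the GINS complex join MCM to form the active helicase. Cyclins and their kinases drive these steps, and CDC25 phosphatases switch the kinases on. In mitosis condensin (SMC2, SMC4 and NCAP proteins) compacts the chromosomes, cohesin (SMC1A, SMC3) holds the sister copies together, and TOP2A untangles the DNA. The centromere carries CENP proteins, on which the outer kinetochore is built, and the NDC80 complex (NDC80, NUF2, SPC24, SPC25) and the SKA complex (SKA1, SKA2, SKA3) grip the spindle microtubules. The checkpoint proteins BUB1, BUB1B, BUB3, MAD2L1 and TTK hold the cell back until every kinetochore is attached, and BIRC5 (survivin) guides the kinase AURKB to the centromere as part of the chromosomal passenger complex. DCC is the receptor for netrins in axon guidance and Nrp1 a receptor for class-III semaphorins.

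Each library held between 8838296 and 11055895 counts on genes. The floor of 3 counts used below thus corresponds to 0.271 to 0.339 counts per 1000000 (CPM) by library size alone. Levels are given in CPM after TMM scaling over the 9 libraries, as mean ± SD (n = 3 per group). On that scale 3 counts are 0.208 CPM in DCC-IP replicate 3 and 0.387 CPM in Input replicate 1. CPM is not divided by transcript length, so levels are compared between libraries and not between genes, and counts of different genes are set side by side only to show the depth behind them. The mRNAs of the receptors themselves were low. DCC was listed at 0 counts in all 9 libraries. That allows a level of up to 0.339 CPM, by library size alone, in the shallowest of them. It does so only if reads of the gene were counted at all, which the sources used here do not say. NRP1 had 198, 320 and 234 counts in Input but 0 to 83 in the pulldowns. Of 12 sympathoadrenal markers, GATA3, ISL1 and CHGB exceeded the floor in every library and TH was at 0. The summed level of the 12 was 1310 to 4123 CPM in DCC-IP, 1071 to 1404 CPM in Nrp1-IP and 314 to 509 CPM in Input. Of 6 markers of other cell types found in the tables, PTPRC, ALB, KRT5, GFAP and MBP were at 0 throughout, and the summed level, all of it COL1A1, lay between 0.0922 and 4.78 CPM. A single gene, MAP1B, took 40.3% to 52.1% of gene counts in DCC-IP and 1.58% to 2.44% elsewhere. Some common housekeeping genes were close to absent, with B2M and TUBB at 0 in all 6 pulldown libraries and GAPDH at 0 to 24 counts there and 1, 27 and 352 counts in Input, whereas ACTB had 1022 to 28167 counts in the pulldowns and 23675, 25286 and 285358 counts in Input. With these zeros a member listed at 0 cannot be read as an mRNA that the cells lack.

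Most of the machinery was seen, but thinly. Of the 83 genes, 24 exceeded 3 counts in all 9 libraries and 52 did so in some. CCNA1 and CCND2, both cyclins, and CENPW, a centromere protein, had no counts at all, while CDK1, CENPN, CENPT and SPC25 never passed 3 counts. CDK1, the kinase that drives entry into mitosis, had 3 counts in a single Nrp1-IP library and none elsewhere. The number of members above the floor was 30, 51 and 63 for DCC-IP, 51, 60 and 64 for Nrp1-IP and 38, 56 and 62 for Input. These ranges overlapped between the groups. DCC-IP replicate 1 and Input replicate 1 held the fewest members, and they also held the fewest genes of any kind, with 10.9% and 14.1% of all genes above the floor against 17.3% to 22.7% in the other 7 libraries.

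**Figure D1:**
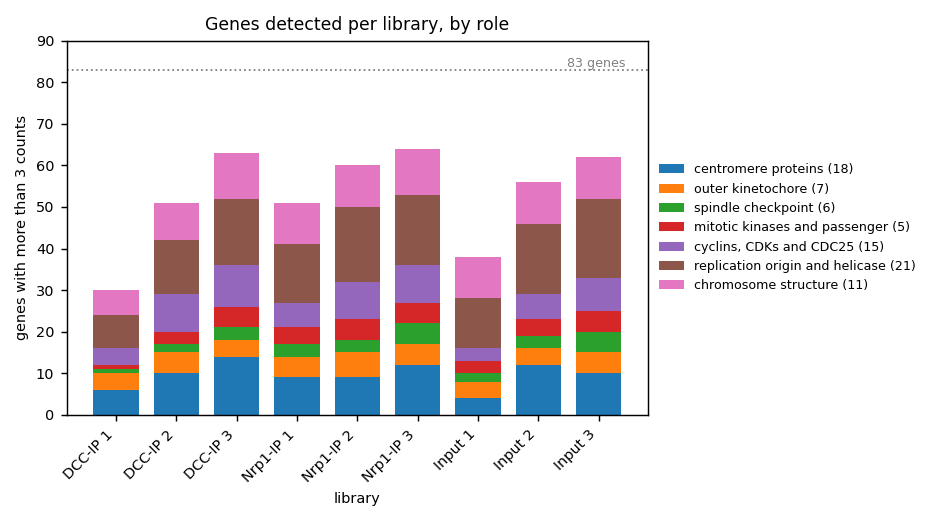
Number of the 83 genes with more than 3 counts (vertical axis) in each of the 9 libraries (horizontal axis), coloured by role, with the number of genes of that role in brackets in the key. The bars reach 30 in DCC-IP replicate 1 and 64 in Nrp1-IP replicate 3, and the dotted line marks all 83 genes.

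Counts were concentrated on a few members. BIRC5, SKA2 and SPC24 together held 86.7% of all counts on the 83 genes, and with MCM7 and CCND1 the share was 93.3%. The summed level of the whole set was 4274 ± 883 CPM in DCC-IP, 13386 ± 2363 CPM in Nrp1-IP and 15544 ± 478 CPM in Input. Without BIRC5, SKA2 and SPC24 the other 80 genes summed to 1599 ± 511, 1124 ± 266 and 1470 ± 941 CPM in the same order. On this scale the remainder overlapped between the groups. The overlap depended on the scaling: with MAP1B left out of the library size, a scale chosen after the data were seen, the 80 genes summed to 2453 to 4763 CPM in DCC-IP, 996 to 1741 CPM in Nrp1-IP and 718 to 2338 CPM in Input, and the whole set to 8767 ± 1693, 15483 ± 3029 and 13018 ± 1747 CPM. The groups are pulldowns and lysate of a single cell line, so these sums describe the RNA recovered. They say nothing about how many cells were in a given stage of the cycle.

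**Figure D2:**
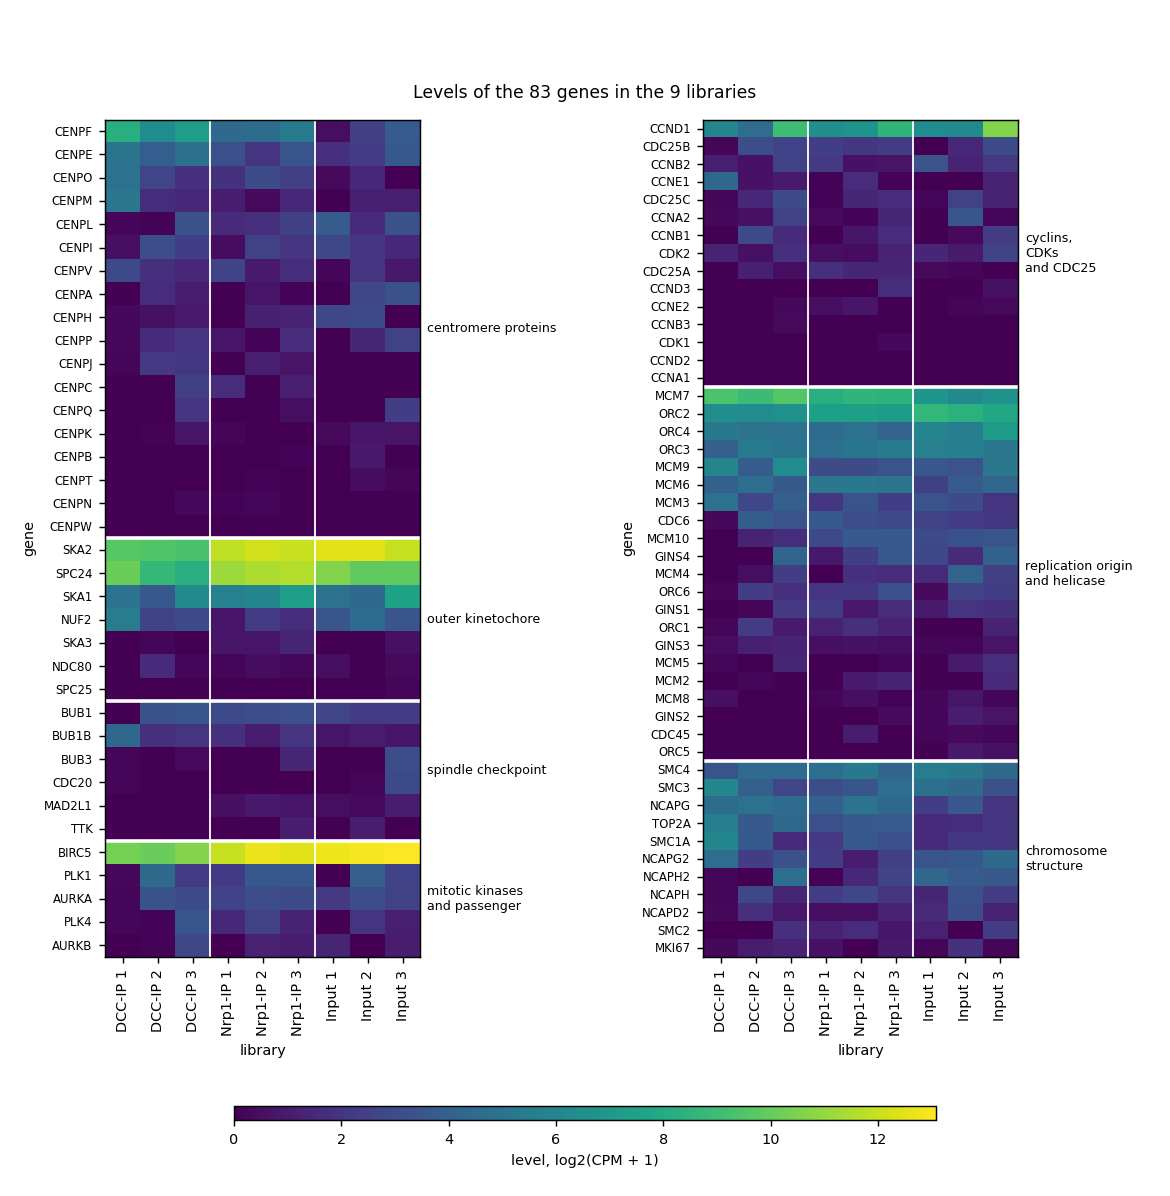
Level of each of the 83 genes (rows, grouped by role and ordered by mean level within a role) in the 9 libraries (columns), as log2(CPM + 1) with TMM scaling over all libraries. SKA2, SPC24 and BIRC5 are the bright rows, dimmer in the 3 DCC-IP columns, and most other rows stay dark, with CCNA1, CCND2 and CENPW at 0 throughout.

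Between the receptors, the outer kinetochore mRNAs SKA2 and SPC24 and the passenger mRNA BIRC5 were higher in Nrp1-IP, and CENPF, a large kinetochore protein, was higher in DCC-IP. In edgeR's quasi-likelihood test, adjusted by Benjamini-Hochberg over 6439 genes, 3 of the 54 members tested were called higher in Nrp1-IP and 1 lower, or 7.41%, where 3.65% of all genes tested were called (2.56% higher, 1.09% lower). The difference from that background amounts to a few genes. On the log2 scale the median difference, Nrp1-IP minus DCC-IP, was -0.48 for the members and -0.27 for all genes, with 38 members below 0 and 16 above. The 3 libraries of a group did not overlap those of the other for 7 members higher and 6 lower in Nrp1-IP, where this held for 26.6% of all genes (15.6% and 10.9%). The study's methods describe its experiments in general as independent biological replicates, and the labels do not say what separates the libraries of a group.

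Relative to the lysate, DCC-IP held more CENPF and MCM7, a helicase subunit, and less SKA2 and BIRC5. By the same edgeR test 4 of 51 members were called, 2 in each direction, or 7.84%, where 4.98% of 6223 genes were called (1.46% higher, 3.52% lower). The median log2 fold change of DCC-IP over Input was 0.25 over the members and 0.16 over all genes. Groups did not overlap for 8 members higher and 5 lower in DCC-IP, where this held for 33.4% of all genes (15.2% and 18.2%). Libraries of the same number tended to deviate together in this comparison. They also did so between the receptors and, for replicates 1 and 3, between Nrp1-IP and Input. With the replicate number as a block the test of DCC-IP over Input called 7 members (2 higher, 5 lower) and 715 genes in all, against 310 without it. The block added CCND1, ORC2 and SPC24, all lower in DCC-IP, to the 4 named above. Without DCC-IP replicate 1 or 2 the test called 0 and 1 of all genes, and none of the 4 member calls held. This loss covered almost every gene called, and its cause was not tested. The calls for DCC-IP over Input thus depended on both libraries, and the fold changes are given for those fits below.

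Nrp1-IP differed from the lysate by a single call among the members, MCM7, which was higher. That is 1 of 50 members, or 2%, where 4.97% of 6501 genes were called (1.94% higher, 3.03% lower) by edgeR's quasi-likelihood test. The median difference from Input on the log2 scale was -0.04 for the members and 0.06 for all genes, with 25 members on each side of 0. Groups did not overlap for 11 members higher and 6 lower in Nrp1-IP, where this held for 31.5% of all genes (17.7% and 13.8%). The shares differ by a gene or so and their order depended on the tool, since edgeR's exact test called 6 of the 50 members beside 660 genes in all and DESeq2 8 beside 966. All 3 comparisons share libraries with each other, so their values for a gene are set side by side below and are not independent.

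**Figure D3:**
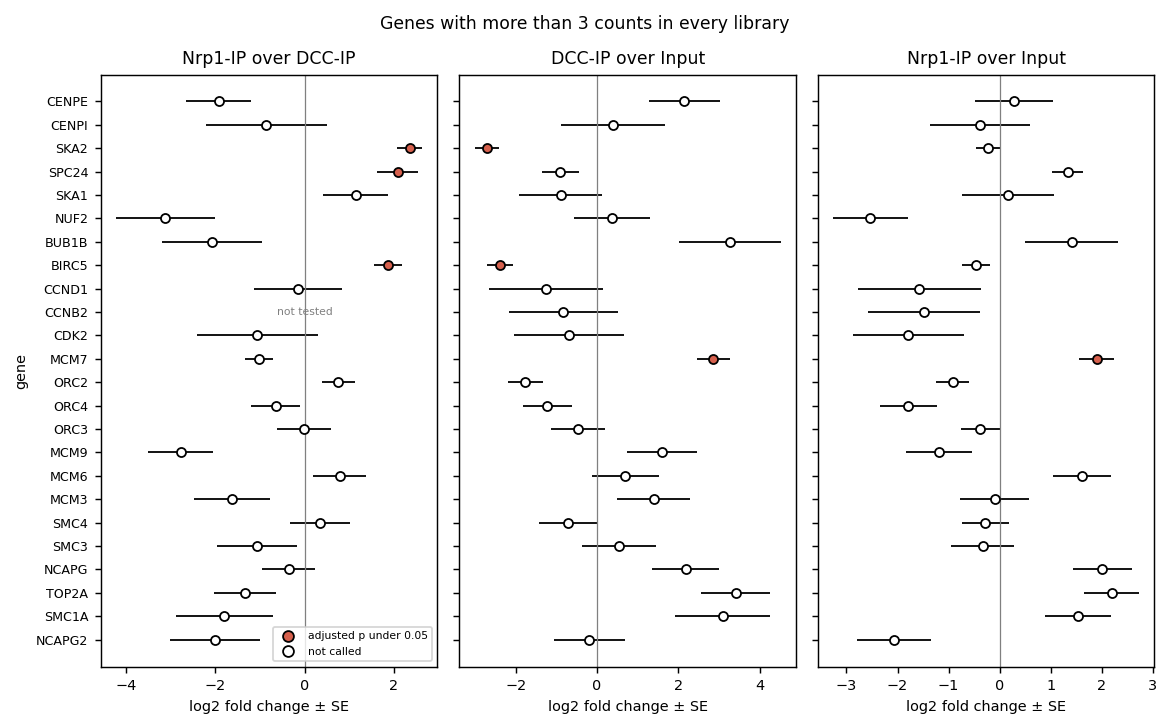
Log2 fold change ± SE (horizontal axes) of the 24 genes with more than 3 counts in every library, in each of the 3 comparisons (23 at the left, where CCNB2 was not tested), from edgeR's quasi-likelihood fit. Filled points have an adjusted p under 0.05: SKA2, SPC24 and BIRC5 at the left, SKA2, BIRC5 and MCM7 in the middle and MCM7 at the right; CENPF was called in the left and middle comparisons but had 3 counts in an Input library and is not drawn.

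Within the outer kinetochore, SKA2 gave the clearest difference of the whole set. It read 822, 729 and 640 CPM in the DCC-IP libraries, 3663, 4622 and 4111 CPM in Nrp1-IP and 5730, 5913 and 3862 CPM in Input. Every DCC-IP library lay below every other library, while Nrp1-IP and Input overlapped. Nrp1-IP exceeded DCC-IP by 2.35 ± 0.28 (SE) on the log2 scale, or 5.09-fold, with an adjusted p of 0.0028 by edgeR's quasi-likelihood test. Against Input, DCC-IP was lower by 6.52-fold (log2 fold change -2.71 ± 0.30, edgeR adjusted p = 0.00513), and Nrp1-IP stood at -0.23 ± 0.23 on the log2 scale (edgeR adjusted p = 0.636). The call between the receptors held without any single library, with edgeR adjusted p up to 0.0269. Between DCC-IP and Input the log2 fold change was -2.69 without DCC-IP replicate 1 and -2.38 without replicate 2, where almost no gene was called (edgeR adjusted p = 0.0766 and 0.111), and the call held without any other library.

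SPC24, a subunit of the NDC80 complex, differed from SKA2 in its place relative to the lysate. Its levels were 1123, 412 and 292 CPM in DCC-IP against 2282, 2834 and 3192 CPM in Nrp1-IP and 1546, 958 and 958 CPM in Input. Nrp1-IP lay above both other groups, and DCC-IP overlapped Input through its first replicate. Nrp1-IP exceeded DCC-IP by 2.08 ± 0.46 on the log2 scale, or 4.23-fold (edgeR adjusted p = 0.0426), and stood 1.33 ± 0.31 over Input, just outside the threshold (edgeR adjusted p = 0.051). DCC-IP over Input was -0.90 ± 0.45 (edgeR adjusted p = 0.289), and with the replicate block -1.01 ± 0.24 (edgeR adjusted p = 0.0357). The call between the receptors was lost without Nrp1-IP replicate 1 (adjusted p = 0.189), 2 (0.152) or 3 (0.117), or without DCC-IP replicate 2 (0.14), in the same edgeR test.

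NUF2, a partner of SPC24 in the NDC80 complex, was lowest in Nrp1-IP, the group in which SPC24 was highest. It read 44.4, 5.53 and 6.94 CPM in DCC-IP, then 0.655, 3.78 and 2.26 CPM in Nrp1-IP and 9.81, 22.4 and 10.1 CPM in Input. Nrp1-IP was the lowest group and overlapped neither of the others, yet its log2 fold changes of -3.12 ± 1.10 over DCC-IP and -2.53 ± 0.73 over Input did not pass (edgeR adjusted p = 0.174 and 0.0912). NDC80 itself stayed at or under 1.92 CPM and SPC25 at or under 0.126 CPM in every library. SKA1, which binds microtubules within the SKA complex and was chosen for mention after its values were seen, had 38.1 ± 31.6, 90.4 ± 61.0 and 80.3 ± 95.7 CPM in DCC-IP, Nrp1-IP and Input, and SKA3 did not pass 1.58 CPM. Of the 7 genes of these complexes, 4 were tested in each comparison by edgeR's quasi-likelihood test. SKA2 and SPC24 were called between the receptors and SKA2 for DCC-IP over Input, where 3.65% and 4.98% of all genes were called.

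BIRC5 held the most counts of the set. It read 1289, 1090 and 1627 CPM in DCC-IP against 3859, 6544 and 5679 CPM in Nrp1-IP and 6835, 7761 and 8659 CPM in Input. The 3 groups did not overlap, with DCC-IP lowest and Input highest. Nrp1-IP exceeded DCC-IP by 1.86 ± 0.31 on the log2 scale, or 3.64-fold (edgeR adjusted p = 0.0116), and DCC-IP was 5.24-fold below Input (log2 fold change -2.39 ± 0.32, edgeR adjusted p = 0.00726). The difference between Nrp1-IP and Input, -0.46 ± 0.27, did not pass (edgeR adjusted p = 0.366). The call between the receptors was lost without Nrp1-IP replicate 2 (1.70, edgeR adjusted p = 0.0918). Between DCC-IP and Input the log2 fold change was -2.30 and -2.02 without DCC-IP replicate 1 or 2 (edgeR adjusted p = 0.0799 and 0.122, with almost no gene called), and the call held without any other library.

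The mitotic kinases had few counts and no call. AURKA, a spindle pole kinase, had 5.4 ± 4.63 CPM in DCC-IP, 6.71 ± 1.29 CPM in Nrp1-IP and 5.39 ± 2.18 CPM in Input. AURKB, the catalytic partner of BIRC5, was at 0 in 3 of the 9 libraries and reached 6.11 CPM in DCC-IP replicate 3. PLK1, a kinase of mitotic entry and exit, ranged from 0 in an Input library to 22.2 CPM in DCC-IP replicate 2, and PLK4, the kinase of centriole duplication, from 0 to 9.51 CPM. Their log2 fold changes lay between -1.54 and 1.55 and had standard errors of 0.54 or more, so no difference could be resolved at this depth.

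**Figure D4:**
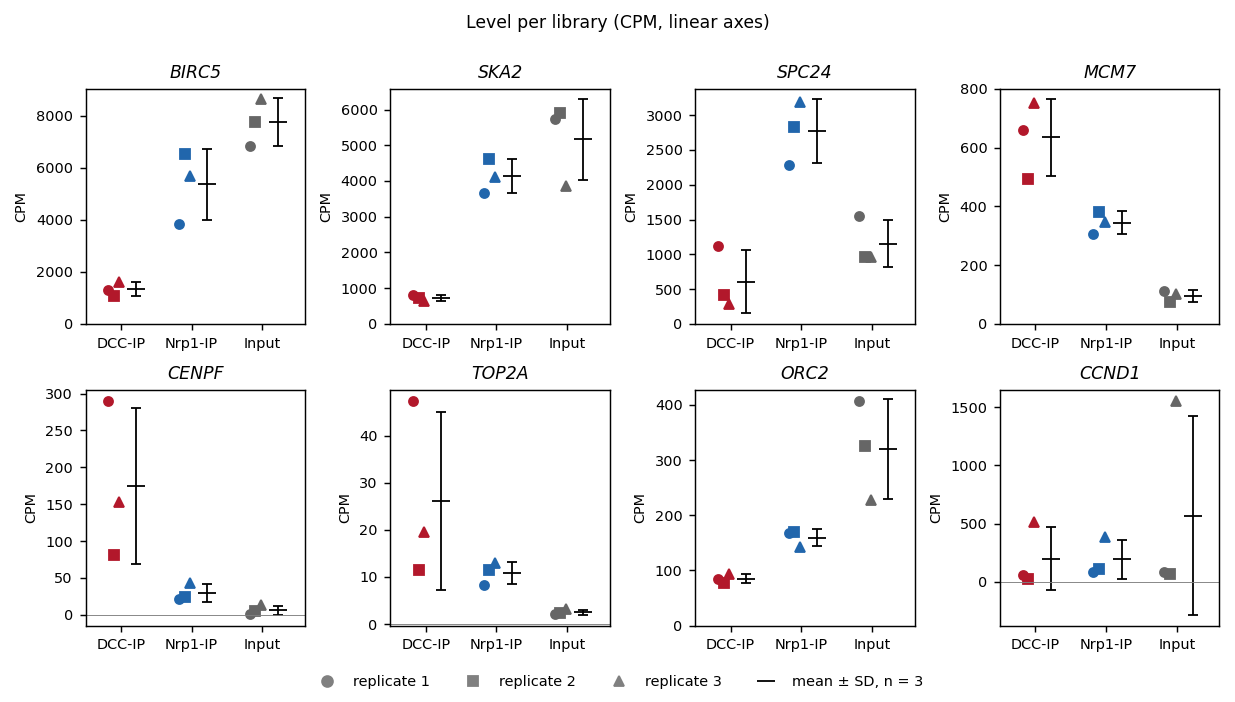
Level in CPM (linear vertical axes) of 8 genes in each library, by group, with replicate number as symbol and mean ± SD (n = 3) as the bar beside the points. BIRC5 and SKA2 are lowest in DCC-IP, SPC24 is highest in Nrp1-IP, MCM7, CENPF and TOP2A are highest in DCC-IP and lowest in Input, ORC2 runs the opposite way, and CCND1 follows replicate 3.

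MCM7, a subunit of the replicative helicase, was higher than the lysate in both pulldowns. Its levels were 660, 494 and 752 CPM in DCC-IP, then 305, 382 and 347 CPM in Nrp1-IP and 113, 73.3 and 102 CPM in Input, so that the 3 groups did not overlap and DCC-IP was highest. DCC-IP exceeded Input 7.27-fold (log2 fold change 2.86 ± 0.41, edgeR adjusted p = 0.00884) and Nrp1-IP exceeded it 3.73-fold (1.90 ± 0.34, edgeR adjusted p = 0.0259). The receptors were not called different (Nrp1-IP over DCC-IP -1.02 ± 0.31, edgeR adjusted p = 0.122). Without single libraries the log2 fold change stayed between 2.65 and 3.25 for DCC-IP over Input and between 1.66 and 1.97 for Nrp1-IP over Input. In the fits that still called more than 7 genes in all, the first missed the threshold without Input replicate 1 (edgeR adjusted p = 0.0717) or 2 (0.0578), and so did the second (0.0564 and 0.0551). Without DCC-IP replicate 1 or 2, or without any Nrp1-IP library, 0 to 7 genes were called in all and MCM7 was not among them. The MCM7 gene overlaps AP4M1 on the opposite strand in RefSeq, and whether reads were counted by strand is not given in the sources used here. AP4M1 itself had 13 to 553 counts per library, against 613 to 10841 for MCM7, and the microRNAs within MCM7 had 6 counts (MIR25), 2 counts (MIR93) and none (MIR106B) over all libraries.

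The opposite order of SKA2 and MCM7 could be read within each library, where scaling plays no part. There were 1.25, 1.48 and 0.85 SKA2 counts per MCM7 count in DCC-IP, as opposed to 12, 12.1 and 11.8 in Nrp1-IP, and Input had 50.5, 80.6 and 37.8. For BIRC5 the ratios to MCM7 were 1.96, 2.2 and 2.16, then 12.6, 17.2 and 16.4, then 60.2, 106 and 84.8. Neither ratio overlapped between any pair of groups. The ratio of BIRC5 to SKA2, by contrast, ran from 1.05 to 2.54 over the 9 libraries and did not separate the pulldowns from Input: DCC-IP, at 1.49 to 2.54, lay above Nrp1-IP, at 1.05 to 1.42, and Input, at 1.19 to 2.24, overlapped both. These pairs were chosen after their values were seen and the ratios are given without a test.

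None of the other helicase subunits was called by edgeR's quasi-likelihood test, and MCM2 and MCM5 had too few counts to be tested. On the log2 scale, DCC-IP and Nrp1-IP over Input stood at 0.70 and 1.61 for MCM6. MCM3 stood at 1.40 and -0.10 and MCM4 at -1.99 and -2.15. MCM6 read 16, 24.9 and 12.2 CPM in DCC-IP against 34.8, 37.3 and 31.8 CPM in Nrp1-IP and 4.52, 12.4 and 18.9 CPM in Input. Nrp1-IP lay above both other groups without overlap, at 1.61 ± 0.57 over Input and 0.78 ± 0.59 over DCC-IP on the log2 scale (edgeR adjusted p = 0.148 and 0.592). MCM2 and MCM5 stayed at or under 2.52 CPM, MCM3 ran from 3.02 to 29.2 CPM and MCM4 from 0 to 16.7 CPM. MCM9, a relative of the helicase with a role in DNA repair, had 61.1, 13.2 and 78.1 CPM in DCC-IP against 7.02, 7.1 and 9.48 CPM in Nrp1-IP, a log2 fold change of -2.78 ± 0.72 that did not pass (edgeR adjusted p = 0.0709). MCM10, which helps to start replication forks, was at 0, 1.44 and 2.29 CPM in DCC-IP and between 6.27 and 12 CPM in the other 6 libraries, again without a call. MCM6 and MCM9 were picked after their values were seen.

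Of the origin recognition mRNAs, ORC2 and ORC4 lay below the lysate in both pulldowns without overlap, and none was called by edgeR's quasi-likelihood test without the block. ORC2 read 83.9, 77.3 and 94.5 CPM in DCC-IP, then 168, 169 and 142 CPM in Nrp1-IP and 407, 325 and 227 CPM in Input. The 3 groups did not overlap, in the reverse of the order seen for MCM7. DCC-IP over Input was -1.76 ± 0.44 on the log2 scale, just short of the threshold (edgeR adjusted p = 0.0558) and past it with the replicate block (-1.75 ± 0.37, edgeR adjusted p = 0.0229), while Nrp1-IP over Input was -0.92 ± 0.32 (edgeR adjusted p = 0.145). ORC4 had 32.1 ± 4.99, 22.8 ± 6.61 and 80.9 ± 49.4 CPM and ORC3 29 ± 12.7, 33 ± 7.87 and 45.6 ± 8.38 CPM in DCC-IP, Nrp1-IP and Input, and ORC1, ORC5 and ORC6 did not exceed 8.2 CPM. ORC1 stood the other way, at log2 fold changes of 2.08 for DCC-IP and 1.89 for Nrp1-IP over Input, with groups that overlapped. CDC6, the loader, had 8.64 ± 2.86 CPM in Nrp1-IP and 4 ± 0.752 CPM in Input. CDC45 and the GINS subunits, which complete the helicase, stayed at or under 3.93 CPM in every library, apart from GINS4, which reached 17.3 CPM. Over all 21 replication genes, 14 were tested in each comparison and MCM7 was the only call in edgeR's quasi-likelihood test. That is 7.14% for each pulldown over Input, where 4.98% and 4.97% of all genes were called. DESeq2 also called ORC2 in both pulldowns against Input, and edgeR's exact test and DESeq2 called MCM9 between the receptors.

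A group of 18 genes was set by the CENP symbol alone, and the figures name it centromere proteins. Of these genes, 11 were tested between the receptors, 10 for DCC-IP over Input and 9 for Nrp1-IP over Input. In edgeR's quasi-likelihood test 1, 1 and 0 of these were called, or 9.09%, 10% and 0%, where 3.65%, 4.98% and 4.97% of all genes were. CENPF was the only one called. It read 290, 80.6 and 153 CPM in DCC-IP against 21.4, 23.4 and 43.2 CPM in Nrp1-IP and 0.387, 4.67 and 12.7 CPM in Input, the last from 3, 39 and 101 counts. The 3 groups did not overlap. Nrp1-IP over DCC-IP was -2.66 ± 0.55 on the log2 scale (edgeR adjusted p = 0.0303) and DCC-IP over Input was 4.92 ± 1.13 (edgeR adjusted p = 0.0444), while Nrp1-IP over Input, 2.35, did not pass (edgeR adjusted p = 0.225). The first call was kept without DCC-IP replicate 2 and lost without any other library, with edgeR adjusted p of 0.0587 to 0.314 and log2 fold changes of -3.02 to -1.96, and it was also lost with library size only (edgeR adjusted p = 0.0523) and in one fit of all 9 libraries (0.177). The second was lost without Input replicate 1 (edgeR adjusted p = 0.088) or 2 (0.14), with library size only (0.0525) and when MAP1B was left out before scaling (0.0576). Without DCC-IP replicate 1 or 2, where almost no gene was called, its log2 fold change was 4.50 and 5.68.

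The remaining CENP genes had fewer counts and no call in that test. CENPE, the kinesin that carries chromosomes along the spindle, had 24.3 ± 9.05 CPM in DCC-IP, 6.89 ± 3.48 CPM in Nrp1-IP and 5.87 ± 4.59 CPM in Input. Its DCC-IP libraries lay above the other 6, with log2 fold changes of -1.93 ± 0.73 for Nrp1-IP over DCC-IP and 2.15 ± 0.87 for DCC-IP over Input, and neither passed (edgeR adjusted p = 0.208 and 0.193). CENPM and CENPO, of the inner centromere network, owed their DCC-IP means to DCC-IP replicate 1, with 35.6 CPM against 2.25 and 1.73 CPM for CENPM and 28 CPM against 5.69 and 2.57 CPM for CENPO. The log2 fold change of CENPM over Input, 3.94 ± 1.71, came down to 1.61 when that library was left out. CENPA, the histone variant that marks the centromere, was at 0 in 3 libraries, 1 of each group, and reached 8.32 CPM in Input replicate 3. CENPL was highest in Input, at 7.88 ± 5.66 CPM, and overlapped the pulldowns. Of the 10 CENP genes tested for DCC-IP over Input, 6 had a log2 fold change above 0, where 3290 of all 6223 genes did.

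No spindle checkpoint mRNA was called by edgeR's quasi-likelihood test, and most had few counts. BUB1, the kinase that recruits the checkpoint to kinetochores, read 0, 8.34 and 10.1 CPM in DCC-IP, then 6.74, 7.47 and 8.05 CPM in Nrp1-IP and 5.68, 3.83 and 3.78 CPM in Input, so that Nrp1-IP lay just above Input without overlap. BUB1B had 19.7, 2.49 and 3.05 CPM in DCC-IP against 2.34, 1.01 and 2.86 CPM in Nrp1-IP and 0.646 to 1.08 CPM in Input. Neither was called by edgeR's quasi-likelihood test in any comparison, although BUB1B reached an unadjusted p of 0.0291 for DCC-IP over Input and DESeq2 called it there. BUB3, MAD2L1, TTK and CDC20, the target of the checkpoint, had too few counts to be tested. CDC20 had 6.55 CPM in Input replicate 3 and at most 0.12 CPM in the other 8 libraries.

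Among cyclins, CDK and CDC25 genes, CCND1 had the most counts, and its level followed the replicate number rather than the pulldown. It read 60.8, 24.8 and 513 CPM in DCC-IP, then 89.3, 108 and 382 CPM in Nrp1-IP and 82.6, 71.8 and 1552 CPM in Input. In each group the third replicate was the highest, at 12, 3.87 and 20.1 times the mean of the other replicates. SKA1 showed the same order, at 3.49, 2.91 and 7.62 times. Such an order was not particular to the set: replicate 3 was highest in all groups for 7 of 54 members with a mean of at least 1 CPM, or 13%, and for 13.3% of all 6958 such genes. Without the block, CCND1 had a log2 fold change of -1.25 ± 1.40 for DCC-IP over Input (edgeR adjusted p = 0.668), and with it -1.07 ± 0.27 (edgeR adjusted p = 0.0439). When Input replicate 3 was left out of the fit without the block, the sign turned, to 1.59 (edgeR adjusted p = 0.56).

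CDC25A, the phosphatase that promotes entry into S phase, had its highest level in Nrp1-IP, from few counts. It read 2.34, 1.66 and 1.66 CPM in Nrp1-IP, 0, 1.2 and 0.416 CPM in DCC-IP and 0.258, 0.12 and 0 CPM in Input. DCC-IP overlapped Input, and that comparison had too few counts to be tested. Summed over libraries, Nrp1-IP held 65 counts, DCC-IP 21 and Input 3. These sums are given without a test, since PCR reads without molecular identifiers are not independent molecules. The comparison of Nrp1-IP with Input passed the count filter through the Nrp1-IP libraries alone. CDC25A was not called by edgeR's quasi-likelihood test (Nrp1-IP over Input 3.87 ± 1.29, adjusted p = 0.13), and edgeR's exact test did call it. CCNE1, which starts S phase with CDK2, had 19.9 CPM in DCC-IP replicate 1 and at most 2.12 CPM elsewhere. The mitotic cyclins CCNA2, CCNB1 and CCNB2 ranged from 0 to 10.4 CPM without a call.

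For condensin, cohesin and TOP2A, TOP2A and NCAPG read above the lysate in both pulldowns without passing the test. TOP2A, picked for mention after its values were seen, read 47.4, 11.5 and 19.5 CPM in DCC-IP against 8.24, 11.5 and 12.9 CPM in Nrp1-IP and 2.07, 2.27 and 3.15 CPM in Input. Both pulldowns lay above Input without overlap, at 3.41 ± 0.86 and 2.19 ± 0.54 on the log2 scale (edgeR adjusted p = 0.0575 and 0.0618). NCAPG, a condensin subunit picked in the same way, had 25.2 ± 3.15, 22.1 ± 7.88 and 6.06 ± 4.23 CPM, with both pulldowns again above every Input library (edgeR adjusted p = 0.158 and 0.0922). NCAPG2 and NCAPH2, of the other condensin complex, stood the opposite way, Nrp1-IP below Input without overlap, at 3.24 ± 1.94 against 14.2 ± 6.81 CPM and 2.48 ± 2.76 against 14.4 ± 4.18 CPM. The subunits did not divide by complex, since NCAPD2 and NCAPH, which share one with NCAPG, did not follow it. Their log2 fold changes over Input were -1.45 and -0.69 in DCC-IP and -1.99 and 0.03 in Nrp1-IP, with groups that overlapped. SMC4, the condensin ATPase with the most Input counts of this group, had 18.6 ± 7.89, 27.1 ± 10.3 and 34.9 ± 11.8 CPM, and all groups overlapped. The cohesin subunits SMC1A and SMC3 owed their DCC-IP means to DCC-IP replicate 1, with 62.8 and 64.7 CPM against 2.08 to 15.4 CPM in its other libraries. None of the 11 genes was called by edgeR's quasi-likelihood test in any comparison. At an unadjusted p under 0.05 there were 3 of 10 tested for DCC-IP over Input, 5 of 10 for Nrp1-IP over Input and 0 of 11 between the receptors, where 22%, 21.6% and 17.4% of all genes were, so these counts differ from the background by a few genes at most. DESeq2 called TOP2A, NCAPG and SMC1A in the first and TOP2A, NCAPG and NCAPG2 in the second, and edgeR's exact test called TOP2A in both and NCAPG in the second, while neither tool called any of the 11 between the receptors.

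DCC-IP libraries varied most among themselves. Over members with at least 30 summed counts in a group, the median coefficient of variation was 90.2% in DCC-IP (57 genes), 50.4% in Nrp1-IP (52 genes) and 76.1% in Input (50 genes), against 90%, 43.1% and 62% over all such genes. Of the 5 most abundant members, SKA2, MCM7 and BIRC5 were steadier than the median member in every group. SKA2 had 12.5%, 11.6% and 22%, MCM7 20.6%, 11.1% and 21.5% and BIRC5 20.3%, 25.6% and 11.8%. SPC24 had 73.7%, 16.5% and 29.4% and CCND1 136%, 84.8% and 150%. Of 53 members with a mean of at least 1 CPM in DCC-IP, 5 were more than 5 times as high in replicate 1 as in both other libraries and 10 in replicate 3, or 9.43% and 18.9%, where 7.3% and 12.2% of all genes were. BUB1B, CCNE1, CENPM, NUF2 and SMC1A made up the former and CCND1, GINS4, MCM4 and PLK4 were among the latter. In Nrp1-IP a single member, CCNB2, stood out in this way.

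Leaving MAP1B out before scaling kept all 4 member calls between the receptors and 3 of the 4 for DCC-IP over Input, where CENPF was lost (edgeR adjusted p = 0.0576) and the calls over all genes fell from 310 to 73. SKA2 stood at 2.64 ± 0.24 for Nrp1-IP over DCC-IP and -2.43 ± 0.40 for DCC-IP over Input, BIRC5 at 2.11 ± 0.33 and -2.18 ± 0.38, and MCM7 at 3.07 ± 0.51 for DCC-IP over Input. Each of these was called in edgeR's quasi-likelihood test, with adjusted p from 0.00097 to 0.0321. SPC24 stood at 2.42 ± 0.41 between the receptors on this scale (edgeR adjusted p = 0.0131).

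A further list of 148 genes that work with these proteins (cohesin regulators, other kinetochore genes, spindle motors, the anaphase-promoting complex, DNA synthesis and cell cycle transcription) was tabulated for context. Of 98 tested between the receptors, 3 were called, all lower in Nrp1-IP, or 3.06%, close to the background of 3.65%. These were LIN54, a DNA-binding subunit of the complexes that time cell cycle genes (log2 fold change -3.84 ± 0.45), RFC4, of the clamp loader (-4.11 ± 0.90), and PDS5B, a cohesin regulator (-1.32 ± 0.29), with edgeR adjusted p of 0.00255, 0.0397 and 0.0405. RFC4 read 23.8, 16.4 and 11.2 CPM in DCC-IP and 0.562 to 1.66 CPM in Nrp1-IP.

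Against the lysate, 5 of 92 of these genes were called in DCC-IP (4 higher, 1 lower) and 6 of 97 in Nrp1-IP (4 higher, 2 lower), or 5.43% and 6.19%, beside backgrounds of 4.98% and 4.97%. KNTC1, a kinetochore protein that recruits dynein and checkpoint factors, read 797, 706 and 469 CPM in DCC-IP, then 290, 366 and 344 CPM in Nrp1-IP and 92.3, 133 and 110 CPM in Input, an order like that of MCM7 with no overlap between groups. It was called higher in both pulldowns, at 2.66 ± 0.38 and 1.67 ± 0.28 (edgeR adjusted p = 0.00884 and 0.0219). RACGAP1, of the central spindle, was likewise higher in both, at 2.97 ± 0.54 and 2.16 ± 0.43 (edgeR adjusted p = 0.0197 and 0.0344). CDCA8 (borealin), which binds BIRC5 in the passenger complex, was higher in DCC-IP than in Input by 2.57 ± 0.53 (edgeR adjusted p = 0.0325), the direction opposite to that of BIRC5. LIN54 was higher in DCC-IP than in Input by 2.41 ± 0.55 (edgeR adjusted p = 0.0435).

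KNSTRN, a spindle and kinetochore protein, was the only related gene called lower than the lysate in both pulldowns. It read 395, 251 and 123 CPM in DCC-IP against 160, 218 and 115 CPM in Nrp1-IP and 1459, 1158 and 759 CPM in Input, with log2 fold changes of -2.08 ± 0.44 and -2.69 ± 0.38 (edgeR adjusted p = 0.0346 and 0.0132). PDS5B was lower in Nrp1-IP than in Input by -2.07 ± 0.24 on the log2 scale (edgeR adjusted p = 0.00981). WEE1, the kinase that restrains mitotic entry, and STAG2, a cohesin subunit, were higher in Nrp1-IP than in Input, at 1.99 ± 0.33 and 2.13 ± 0.46 (edgeR adjusted p = 0.0218 and 0.043). Cohesin genes thus appeared on both sides, with STAG2 above and PDS5B below the lysate in the same libraries.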

How the data were processed

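RNA-seq was made from 9 SH-SY5Y samples, 3 each of DCC-IP, Nrp1-IP and Input. The authors aligned reads with HISAT2 2.1.0 to hg19, per the submitters' processing notes, counted them per gene with HTSeq 0.11.0 and deposited raw counts without normalization. The annotation and strand setting are not given in the sources used here. HTSeq's summary lines were left out of library sizes. They held most reads: 29.2% to 31.3% of reads fell on genes and 48.7% to 55.8% on no feature.

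Each comparison was fitted on its 6 libraries in edgeR 4.0.16 under R 4.3.3, with filterByExpr at a minimum count of 10, TMM, glmQLFit and glmQLFTest. A call is a Benjamini-Hochberg adjusted p under 0.05 over all genes tested, with no minimum fold. A standard error is the log2 fold change divided by the square root of F. A run of the procedure on simulated data is not used as support for the results here. CPM used TMM over 9 libraries, and 3 counts were the floor.

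Libraries were grouped by pulldown. Deviations from group means over 7628 genes were correlated between libraries. Same-numbered libraries gave 0.109 to 0.379 for DCC-IP and Input, 0.0828 to 0.328 for DCC-IP and Nrp1-IP and -0.0339 to 0.337 for Nrp1-IP and Input. Libraries of different number gave -0.28 to 0.133, -0.2 to 0.098 and -0.364 to 0.167 in the same order. These ranges overlapped in every comparison and were alike in the first and second. The pairs of replicate 3 gave the highest value in each, 0.379, 0.328 and 0.337, above every pair of different number. What same-numbered libraries share was not tested. The labels do not say what a number marks, so the main fits took no pairing and the replicate block is an alternative. Its member values are given for DCC-IP over Input, a choice that the correlations do not single out.

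Genes were named by rule: every member called, the 5 with the highest mean CPM, the member of each role with the most Input counts, the 3 largest log2 fold changes per comparison, and called genes of the related list. Other members described, among them CENPE, MCM10, BUB1B, NCAPG2, NCAPH2, SMC1A, AURKA and CDC20, fall outside these rules. Members and lists were chosen with earlier results of these data known. Symbols were matched to RefSeq (GRCh38.p14), with 83 of 83 found. In it 20 members overlap another protein-coding gene, for which reads cannot be split without strand. Alternatives were other tests (DESeq2 1.42.0, edgeR's exact test), scalings, filters, a joint fit, the replicate block and leaving out each library.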

Additional observations from a re-analysis of the deposited data

How the results depend on the processing

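Several counts of calls moved by over 1.5 times. For Nrp1-IP over DCC-IP, 235 genes were called, and edgeR's exact test called 437, DESeq2 705, the fit with no filter 484, a minimum of 10 counts in every library 459 and the replicate block 369. Without single libraries the count ran from 74 to 346, and the 4 member calls from 1 to 4. For DCC-IP over Input, 310 genes became 556 by the exact test, 1032 by DESeq2, 73 with MAP1B left out, 805 with at least 10 counts in every library, 780 in one fit of all 9 libraries and 715 with the block, and 0 to 250 without single libraries. The 4 member calls became 10 by DESeq2, 8 with 10 counts in every library, 7 with the block and 0 to 5 without single libraries. For Nrp1-IP over Input, 323 genes became 660 (exact test), 966 (DESeq2), 518 (library size only), 882 (no filter), 632 (10 counts), 125 (one fit) and 556 (block), and 0 to 441 without single libraries, while the 1 member call became 6 (exact test), 8 (DESeq2), 3 (library size only), 9 (no filter), 4 (10 counts), 5 (block) and 0 to 2 without single libraries. Where edgeR's quasi-likelihood test called 0 genes, without DCC-IP replicate 1 or Nrp1-IP replicate 1 against Input, 1554 and 1061 genes had an unadjusted p under 0.05, and where it called 0 members 8 to 13 did. DESeq2 was not run on these subsets. The cause of these shifts was not tested. The replicate block removed none of the member calls for DCC-IP over Input or between the receptors, and the labels do not say whether the numbers pair libraries.

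Scaling moved the median of all genes by 0.16, -0.16 and -0.19 with RLE factors and by 0.17, 0.32 and 0.38 with library size only, in the order above, and the share of calls that were higher from 70.2%, 29.4% and 39% to 80.9%, 20.7% and 24.3% or 82.3%, 45.8% and 67.8%; MAP1B left out gave 85% between the receptors. The summed level of the members in DCC-IP became 8767 CPM on library sizes without MAP1B, and in Input 12746 CPM with library size only and 13018 CPM without MAP1B.

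Signs turned only for values without a call in the main test, among them CCND1, which was called with the block for DCC-IP over Input and with no filter for Nrp1-IP over Input. For Nrp1-IP over DCC-IP, CCND1 went to 0.59 with the block, and CENPL to 0.08 with no filter, 0.03 in one fit and 2.51 with the block. Without single libraries the log2 fold change ran from -1.10 to 2.47 for CCND1, -0.52 to 5.03 for CENPL, -6.25 to 0.06 for CCNE1, -1.76 to 0.25 for CENPO, -0.29 to 0.88 for BUB1 and -0.66 to 0.03 for NCAPG. For DCC-IP over Input, NUF2 went to -0.03 and BUB1 to -0.02 with the block, and without single libraries the range was -0.91 to 1.44 for NUF2, -3.34 to 1.59 for CCND1 and -1.54 to 0.75 for SKA1. For Nrp1-IP over Input, SKA2 went to 0.16 and SMC4 to 0.11 with library size only, and the range without single libraries was -0.21 to 0.95 for CENPM, -2.53 to 1.27 for CCND1 and -0.53 to 1.79 for SKA1. SKA2 between the receptors kept its call in all 15 alternatives, with log2 fold changes of 2.27 to 2.64. Where a library had few counts, as for CENPF with 3 counts in an Input library, the fold change rests on few reads.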
